A study of Homo sapiens and Rattus norvegicus with 26 samples.

Results

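The collagen genes of human and rat cells were followed across 4 blood-brain barrier culture models kept under high or low shear stress. Members were all genes whose symbol consists of COL, a number, A and a number, and whose symbol occurs in the count tables of all 4 models, which gave 43 genes of the 16513 symbols that the tables share. The tables of the human models hold 43382 genes and that of the rat model 33289. COL21A1 is in the human tables only and COL6A4 in the rat table only, so neither is a member.

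RNA was sequenced from microfluidic chips perfused for 72 h at high shear, 12 dyne/cm2, or at low shear, which the series gives as 0.1 dyne/cm2 and the methods as 0.5 dyne/cm2. The hECs are endothelial cells without organ-specific features, the hCECs are endothelial cells whose Wnt pathway was switched on with CHIR99021, an inhibitor of the kinase GSK3 that stayed in their chip medium at both shear levels, and the hBMEC-like cells are barrier-forming cells with many epithelial genes. All human cells were differentiated from the induced pluripotent stem cell line IMR90-4, so that 1 genetic background stands behind the 3 human models, and each has, from separate differentiations or passages, 3 high-shear and 3 low-shear libraries. The rBMECs were isolated from brain microvessels of male Sprague–Dawley rats, whose age was not stated, and selected with puromycin; they have 4 high-shear and 4 low-shear libraries, and brains could be pooled. The rat chips were run in 3 isolations and shear experiments, fewer than the 4 replicate numbers, so that replicates may share an isolation and need not be independent animals. The medium of hECs and hCECs held FGF2 and VEGF, and the chips of hBMEC-like cells and rBMECs had been coated with collagen IV and fibronectin. Replicate numbers pair a high-shear with a low-shear chip.

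Collagens are secreted proteins whose chains wind around each other into a helix, and the gene products fall into classes by the structures they build. Fibrillar collagens such as types I, III and V form the fibrils of connective tissue, whereas type IV collagens form the sheet-like network of the basement membrane, the layer on which the endothelium of brain capillaries rests. Beaded filaments (type VI), the fibril-associated collagens known as FACITs, transmembrane collagens and the multiplexins (types XV and XVIII), which carry sugar chains and anchor the basement membrane, make up most of the rest.

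Read totals lay between 9790999 and 47006272 counts per library, and collagen transcripts made up about 1% of the counts in each model. Between 15 and 26 members reached 5 CPM (counts scaled to the size of the library) in a library, with 1 exception: the low-shear hCEC library of replicate 2, which is also the one with the fewest counts, held 42 of the 43 members at 5 CPM or more. Members at or near 0 elsewhere in hCECs were measured there at 21.7 CPM (COL22A1) and 20.5 CPM (COL20A1). Its summed endothelial markers stood at 9500 CPM against up to 16100 CPM in the other low-shear hCEC libraries. All 9 epithelial markers, all 6 fibroblast markers and 8 of 9 smooth muscle and mural markers were above 1 CPM in it. In each of the other low-shear hCEC libraries 2, 2 and 4 of them were. The low-shear hEC library of replicate 2 and both rBMEC libraries of replicate 1 also stand apart for some collagens, as given with the values. Endothelial markers were present in hECs, hCECs and rBMECs (10 of 10 genes at 1 CPM or more in every library), whereas hBMEC-like cells had summed endothelial markers of 74.1–84.2 CPM at high shear and 83.0–98.7 CPM at low shear, with CLDN5 at no more than 0.158 CPM, and held all 9 epithelial markers.

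The set of RefSeq (GRCh38.p14) start regions used here held an entry for 31 of the 43 members, which is a limit of that set. The type IV genes lie in head-to-head pairs that share the stretch between their starts. By the RefSeq starts used here, 126 bases separate COL4A1 from COL4A2 on chromosome 13. On chromosome 2, 418 bases separate COL4A4 from COL4A3, and on chromosome X 379 bases separate COL4A6 from COL4A5. Other annotated starts give other distances. GENCODE places COL4A2 from 110305812 and COL4A1 up to 110307157, so that the spans of these genes overlap there. Given here 5′ to 3′, each ending just before the first base that GENCODE places in an exon, are 100 bases of the stretch between COL4A1 and COL4A2 (chr13:110307158-110307257, plus strand), whose products assemble together and whose levels kept a narrow ratio within each model, and the upstream regions of COL13A1 (chr10:69801656-69801879, plus strand) and COL5A3 (chr19:10010505-10010754, minus strand), of which COL13A1 rose and COL5A3 fell at high shear in both hECs and hCECs. Capitals mark any match, on either strand, to the letters CACCC, the GC box motif GGGCGG, the motif CCAAT and the motif TATAAA, and no matches shown share bases.
COL4A1-COL4A2: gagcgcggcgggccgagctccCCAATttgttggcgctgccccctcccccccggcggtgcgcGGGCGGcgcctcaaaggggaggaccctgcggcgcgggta
COL13A1: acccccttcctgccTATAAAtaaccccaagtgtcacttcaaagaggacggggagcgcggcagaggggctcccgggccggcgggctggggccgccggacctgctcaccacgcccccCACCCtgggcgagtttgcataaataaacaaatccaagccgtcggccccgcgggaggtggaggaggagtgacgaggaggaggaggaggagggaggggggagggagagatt
COL5A3: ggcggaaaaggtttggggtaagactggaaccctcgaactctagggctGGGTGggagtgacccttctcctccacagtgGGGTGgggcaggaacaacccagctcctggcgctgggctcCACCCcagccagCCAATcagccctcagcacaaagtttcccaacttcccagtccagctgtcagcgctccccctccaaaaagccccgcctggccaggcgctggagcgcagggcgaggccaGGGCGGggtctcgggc
The stretch between COL4A1 and COL4A2 has a GC content of 78.0%, with 1 GC box match and 1 CCAAT match, that of COL13A1 65.6%, with 1 TATAAA match and 1 CACCC match, and that of COL5A3 66.0%, with 3 CACCC matches, 1 GC box match and 1 CCAAT match. Over the 250 bases before the start, CACCC on either strand occurred in 54.7% of all 35097 RefSeq windows and in 24 of the 31 members, the GC box in 42.6% and in 20 members, CCAAT in 32.0% and in 11 members, and TATAAA in 10.7% and in 7 members. A member was counted if any of its windows held the letters, whereas the percentages count every window singly. A gene with several windows thus had more chances, and the member counts cannot be set directly against the percentages. A match is a description of these letters and not a binding site.

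Which collagens each model transcribed was compared on a length-scaled level, CPM per kilobase of annotated exon. In the 3 endothelial models the type IV genes COL4A1 and COL4A2, the main chains of the basement membrane, led, and in hBMEC-like cells the fibrillar genes COL3A1 and COL1A1 did. In hECs at low shear, COL4A2 stood at 597 ± 22.8 CPM per kilobase (SD, n = 3), 35.1% of the collagen sum, and COL4A1 at 258 ± 15.4. COL6A2, a chain of the beaded filaments, followed at 239 ± 10.2, and COL3A1 at 134 ± 84.4, a spread that takes in the mean of COL18A1 (97.2). COL3A1 stood above COL1A1 within every hEC library, by 1.10 to 1.66 times. In hCECs the same 3 genes led at low shear, with 552 ± 196, 263 ± 83.3 and 168 ± 65.5 CPM per kilobase. Their spread comes mainly from the low-shear library of replicate 2.

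In hBMEC-like cells at low shear COL3A1 reached 783 ± 3.39 CPM per kilobase, 40.6% of the collagen sum, and COL1A1 425 ± 36.9, ahead of COL5A2, which helps to start type I fibrils, at 141 ± 16.2. COL4A2 took 3.90% of the sum in these cells. COL26A1 and COL2A1, the fibrillar collagen of cartilage, each took a larger share than COL4A1, at 66.2 ± 5.80 and 48.9 ± 16.1 CPM per kilobase against 18.7 ± 0.373. Without length scaling COL4A1 had 294, 295 and 284 CPM, COL26A1 240.4, 214 and 255 CPM and COL2A1 227, 244 and 401 CPM. Only COL2A1 in replicate 3 then exceeded COL4A1, so that this order rests on the lengths. In rBMECs Col4a1 stood at 613 ± 119.7 and Col4a2 at 474 ± 120.2 CPM per kilobase (SD, n = 4), with Col4a1 the higher by 1.22 to 1.51 times in every library, followed by Col18a1, the source of the fragment endostatin, at 173 ± 47.3. Col8a1, a chain of the hexagonal network under some endothelia, ranked among the first 6 members in rBMECs (31.7 ± 8.37 CPM per kilobase). These lengths are unions of all annotated exons: the COL4A1 line has 15595 bases in the human tables and 6579 in the rat table. The human COL4A2 line has 6463 bases, and rat Col4a4 only 1152. Ranks and ratios of genes carry these differences within a model too, and ratios were not compared between species. In low-shear hECs COL4A1 had 3985, 3801 and 4278 CPM and COL4A2 3805, 3747 and 4026 CPM, so that without length scaling COL4A1 was the higher.

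By class, basement membrane collagens took a median of 47.4% of the length-scaled sum at high shear and 50.4% at low shear in hECs, 68.4% at both in hCECs, and 83.0% and 78.1% in rBMECs. These shares depend on the annotated lengths, which differ between the species, so rat and human shares were not compared. In hBMEC-like cells they took 8.69% at high shear, against 8.32% at low shear, and fibrillar collagens 80.2% and 79.2%. Fibrillar collagens were spread widely between hEC libraries, at 11.5–20.8% at high shear and 15.1–28.1% at low shear, while the multiplexins took 10.8–14.8% at high shear and 5.85–8.87% at low shear, without overlap. In bulk RNA, fewer cells of a type and less RNA per cell cannot be told apart.

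**Figure D1:**
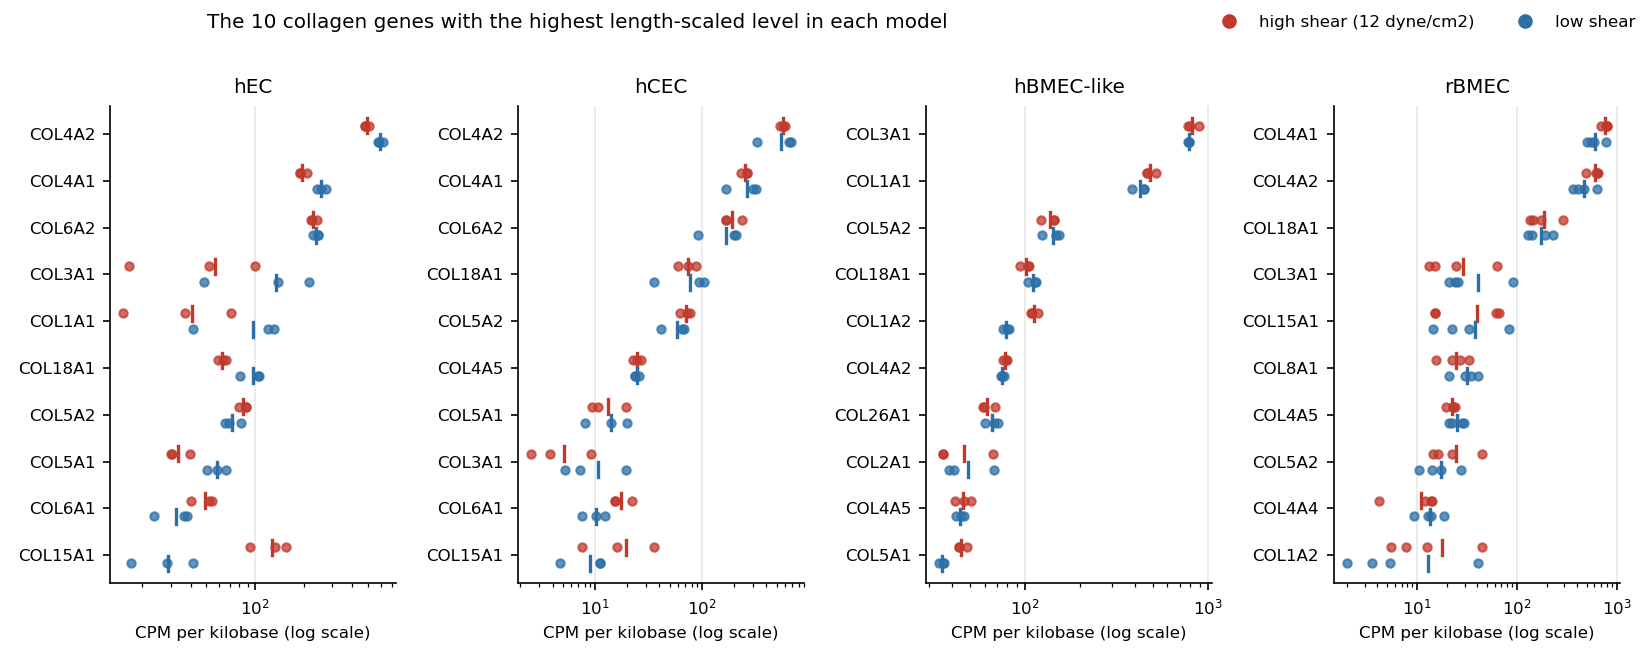
Length-scaled level (CPM per kilobase, log axis) of the 10 leading collagen genes of each model at low shear, with 1 point per library (red for high shear, blue for low shear) and a bar at the mean. COL4A2 and COL4A1 lead in hECs, hCECs and rBMECs, and COL3A1 and COL1A1 in hBMEC-like cells.

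The chains of a collagen were set against each other within each library. The length-scaled ratio of COL4A1 to COL4A2 varied little, at 0.394–0.412 at high shear and 0.420–0.440 at low shear in hECs, and at 0.430–0.452 and 0.467–0.512 in hCECs, so that in both models the high-shear libraries lay below the low-shear ones. In hBMEC-like cells it was 0.245–0.288 at high shear and 0.247–0.251 at low shear. The ratio of COL5A1 to COL5A2, chains of type V collagen, was 0.345–0.501 at high shear and 0.726–0.883 at low shear in hECs, again without overlap, whereas in hBMEC-like cells it was 0.301–0.353 and 0.236–0.274 and thus higher at high shear. COL6A1 stood below COL6A2 in hECs, with ratios of 0.181–0.230 at high shear, against 0.0975–0.159 at low shear, and above it in hBMEC-like cells, at 2.23–2.40 and 2.35–2.66. The ratio of COL4A5 to COL4A6 was 4.53–12.1 at high shear and 2.58–6.14 at low shear in hECs and narrower in hBMEC-like cells, at 1.75–1.84 and 1.80–1.96. COL1A1 to COL1A2 stood at 0.456–1.25 at high shear and 1.42–2.30 at low shear in hCECs, where both genes were low, against 5.58–6.44 and 4.03–5.89 in hECs.

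The first comparison asked how naive hECs change their collagens under high shear. Of the 43 members, 29 passed the filter on low counts in hECs, and 16 of these were lower and 3 higher at high shear. Among all 15488 genes tested, 8.23% were lower and 7.87% higher. COL13A1 and COL15A1 rose 4.97-fold and 4.55-fold, whereas COL5A3 fell 8.33-fold and types I and III fell by 2.55- to 3.22-fold. The median log2 fold change of the 29 members was -0.79, beside 0.00 for all genes tested, with 21 negative and 8 positive values. Members whose 3 high-shear libraries all lay on the same side of the 3 low-shear libraries numbered 9 lower and 3 higher, beside 13.6% and 15.6% of all genes. The share of all counts that fell on collagens was 1.04, 1.09 and 1.07% at high shear, against 1.15, 1.27 and 1.46% at low shear.

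COL13A1 encodes a transmembrane collagen found at cell junctions and synapses, and its gene lies at chromosome 10, 69801880 to 69964275 (GRCh38). It had 48.9, 62.6 and 132 CPM at high shear, against 13, 9.82 and 25.4 CPM at low shear in hECs (log2 fold change 2.31, SE 0.14, adjusted p = 0.000144). Every high-shear library was above every low-shear library. COL15A1, a multiplexin of vascular basement membranes on chromosome 9 (98943179 to 99070792), had 722, 508 and 851 CPM at high shear, against 156, 93.1 and 224 CPM at low shear (log2 fold change 2.19, SE 0.11, adjusted p = 7.77e-05), and the groups did not overlap either. COL18A1, the other multiplexin, went the opposite way, with 427, 451 and 398 CPM at high shear, against 711, 549.6 and 713 CPM at low shear (log2 fold change -0.63, SE 0.11, adjusted p = 0.01), so that all high-shear values were below all low-shear values. COL6A1, which assembles with COL6A2 and COL6A3, had 171, 228 and 219.9 CPM at high shear, against 100.5, 153 and 160.0 CPM at low shear (log2 fold change 0.59, SE 0.08, adjusted p = 0.00299). All 3 of its high-shear values exceeded the highest low-shear value. Its partner COL6A3 had 1.89, 4.92 and 2.44 CPM at high shear, against 8.66, 11.3 and 23.4 CPM at low shear (log2 fold change -2.20, SE 0.36, adjusted p = 0.00716), again without overlap and in the other direction, while COL6A2 had 1058, 1139.5 and 1072 CPM at high shear, against 1155, 1079 and 1168 CPM at low shear and was not called (log2 fold change -0.06, adjusted p = 0.669).

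Of the fibrillar collagens, 6 of the 8 tested were lower at high shear in hECs, and none was higher. COL1A1, whose product forms type I collagen together with that of COL1A2, had 90.5, 419 and 218 CPM at high shear, against 244, 719.6 and 774 CPM at low shear (log2 fold change -1.35, SE 0.18, adjusted p = 0.00268). Its libraries of replicate 1 were the lowest at both shear levels and the groups overlapped, but each high-shear library was below its paired low-shear library. COL1A2 had 12.8, 68.4 and 34.7 CPM at high shear, against 37.8, 152 and 175 CPM at low shear (log2 fold change -1.69, SE 0.20, adjusted p = 0.00179) and COL3A1, the type III chain, had 91.8, 547 and 286 CPM at high shear, against 265, 759 and 1191 CPM at low shear (log2 fold change -1.36, SE 0.26, adjusted p = 0.0133), with the same order of replicates. COL5A1 had 325, 428 and 333 CPM at high shear, against 542, 624 and 713 CPM at low shear (log2 fold change -0.80, SE 0.11, adjusted p = 0.00317), without overlap, and COL5A2 had 610.2, 553 and 615 CPM at high shear, against 483, 457 and 570.5 CPM at low shear and was not called (log2 fold change 0.23, adjusted p = 0.0946). COL5A3, another type V chain on chromosome 19 (9959561 to 10010504), had 1.31, 4.10 and 1.03 CPM at high shear, against 18, 21.2 and 9.59 CPM at low shear (log2 fold change -3.06, SE 0.27, adjusted p = 0.000598). COL11A1, a minor fibrillar chain known from cartilage, had 33.4, 28 and 22.6 CPM at high shear, against 57.5, 46.7 and 59 CPM at low shear (log2 fold change -0.97, SE 0.13, adjusted p = 0.00297). For both, no high-shear value reached a low-shear value.

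In the basement membrane class 3 of 5 tested members were lower at high shear in hECs, with smaller changes. COL4A1 (chromosome 13, 110148963 to 110307157) had 3270.5, 2956 and 2972 CPM at high shear, against 3985, 3801 and 4278 CPM at low shear (log2 fold change -0.40, SE 0.09, adjusted p = 0.0262). COL4A2 had 3294, 3112 and 3116 CPM at high shear, against 3805, 3747 and 4026 CPM at low shear, also without overlap, but was not called by edgeR's quasi-likelihood test (log2 fold change -0.29, adjusted p = 0.0676), while DESeq2 gave an adjusted p of 0.00309. COL4A5 and COL4A6, which lie head to head on chromosome X and supply chains of specialised basement membranes, both were lower: COL4A6 had 7.19, 24.3 and 17 CPM at high shear, against 16.2, 52.2 and 45 CPM at low shear (log2 fold change -1.23, SE 0.10, adjusted p = 0.000356), and COL4A5 had 74.9, 94.6 and 106 CPM at high shear, against 85.4, 116 and 147 CPM at low shear (log2 fold change -0.33, adjusted p = 0.0293). For both genes the groups overlapped, as replicate 1 was low at both shear levels, but all 3 pairs had the lower value at high shear.

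The FACITs, which sit on the surface of fibrils, had 3 of 4 tested members lower in hECs. COL12A1 had 1.34, 3.70 and 1.41 CPM at high shear, against 4.44, 53.7 and 14.4 CPM at low shear (log2 fold change -3.16, SE 0.37, adjusted p = 0.00167). The low-shear library of replicate 2 is far above the others for this gene, and it is likewise the highest for COL16A1 (17.6 CPM), COL8A1 (16.4 CPM), COL7A1, the anchoring fibril (105 CPM against 6.58 to 10.2 CPM in the other low-shear libraries), and COL17A1, a collagen of epithelial hemidesmosomes (30.2 CPM against at most 0.363 CPM in the rest). Without replicate 2, COL12A1 and COL8A1 were still lower (log2 fold change -2.61, adjusted p = 0.00143, and -2.70, adjusted p = 0.0171), and COL16A1 no longer passed the filter. COL14A1, COL16A1 and COL8A1 were called lower but averaged under 5 CPM. COL23A1, a transmembrane collagen, had 18, 30.5 and 13 CPM at high shear, against 37.8, 66.6 and 13.8 CPM at low shear (log2 fold change -0.79, adjusted p = 0.036), with overlapping groups and each high-shear library below its pair.

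**Figure D2:**
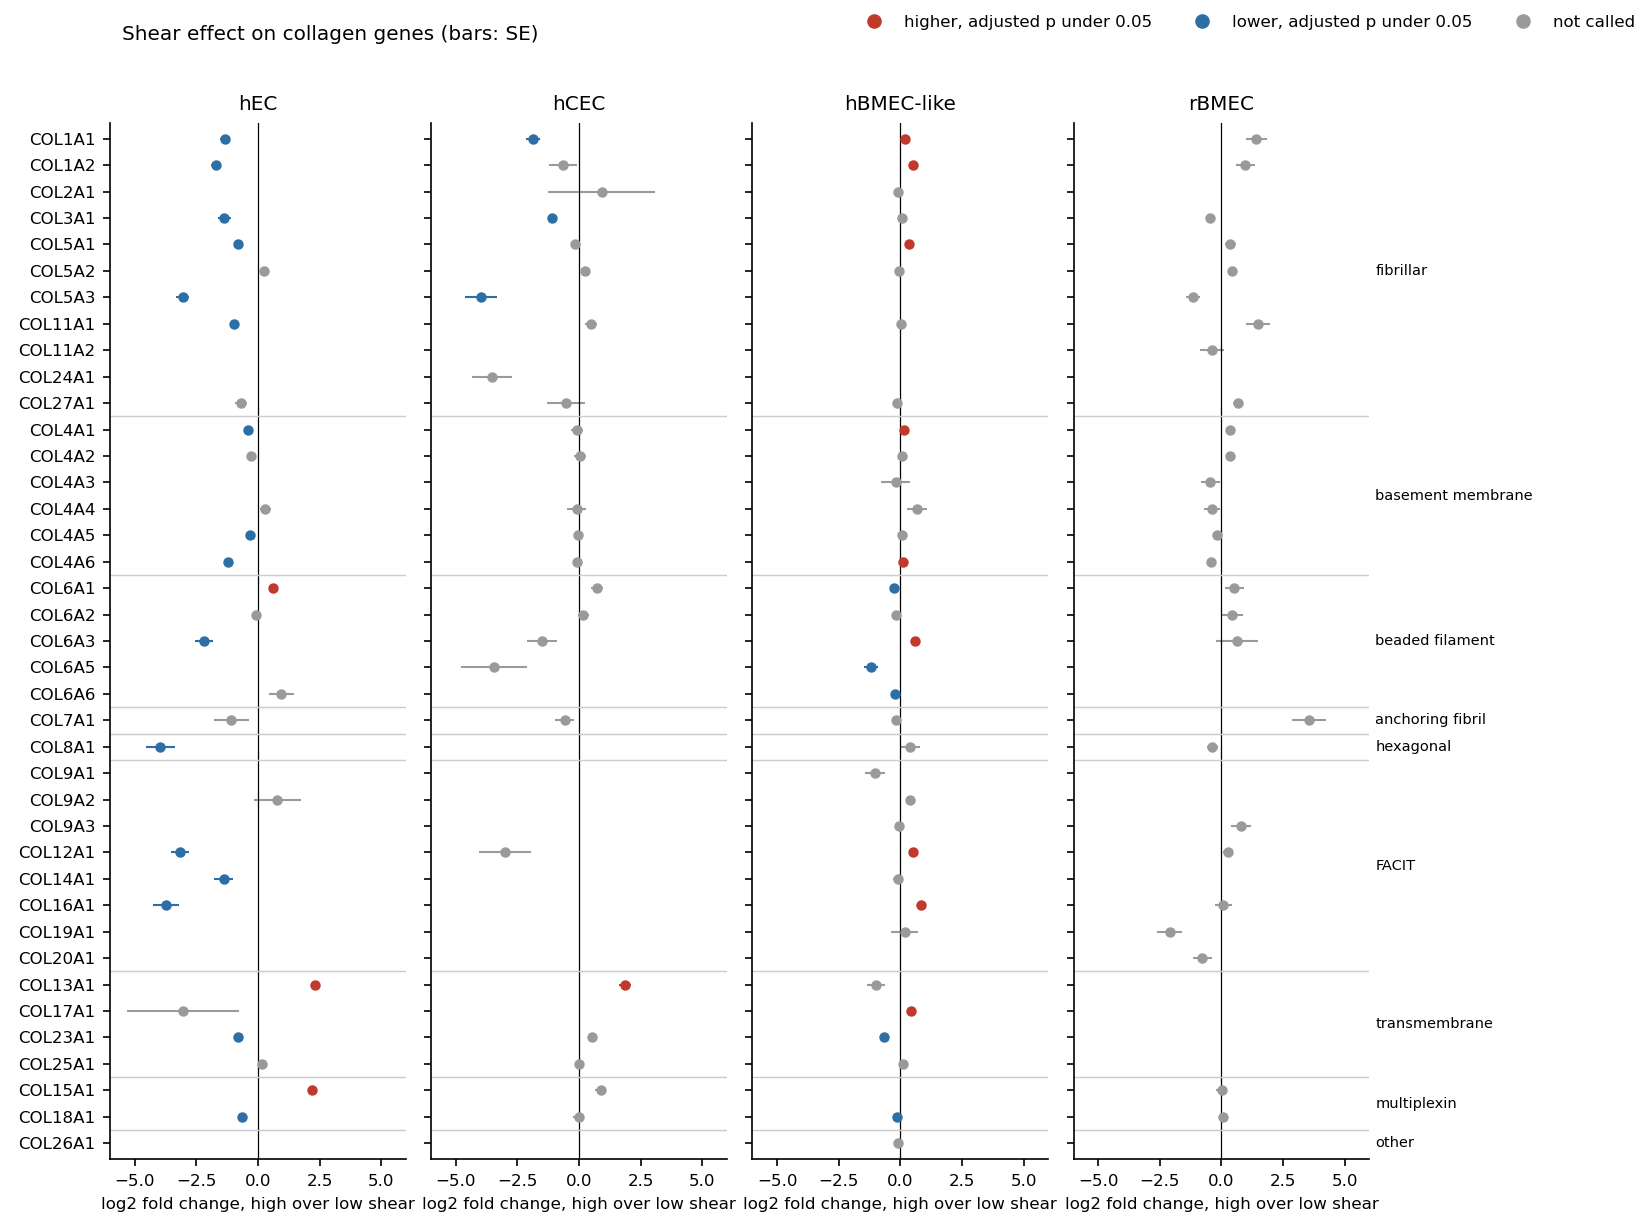
Log2 fold change, high over low shear, of every tested collagen gene in each model, grouped by class; points are edgeR estimates, bars are their standard errors, and colour marks calls at an adjusted p under 0.05. In hECs 16 of 29 points are called lower, whereas in hBMEC-like cells 9 of 34 are called higher, on a smaller scale.

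Some markers of mesenchymal cells moved with the type I and III collagens of hECs, and others did not. Of the 7 smooth muscle and mural markers tested in hECs 4 were lower at high shear (CNN1, NOTCH3, PDGFRB and TAGLN), with sums of 399–624 CPM over the list of 9 at high shear and 635–774 CPM at low shear, and MYH11 was at 0 in all hEC libraries. Of the 6 fibroblast markers, LUM and PDGFRA were lower and THY1 was higher, with sums of 290–450 CPM at high shear and 157–232 CPM at low shear. Most of the smooth muscle and mural sum was RGS5, which was not called. It had 511, 415 and 317 CPM at high shear, against 528, 411 and 395 CPM at low shear. Most of the fibroblast sum was THY1, with 312, 245 and 427 CPM at high shear, against 128, 122 and 134 CPM at low shear. LUM, which encodes a proteoglycan of collagen fibrils, had 7.33, 37.4 and 18 CPM at high shear, against 25.8, 60.6 and 81.9 CPM at low shear, and TAGLN, a smooth muscle actin-binding protein, had 3.56, 14.8 and 5.35 CPM at high shear, against 19.7, 50.6 and 58.6 CPM at low shear. The order of the hEC libraries for LUM at each shear level was that for COL1A2. The progenitors of hECs and hCECs had been sorted with magnetic beads for CD34 or CD31, surface markers of endothelial progenitors, and were cultured further before the chips. The paper reports that smooth muscle-like cells can arise in hEC and hCEC cultures, and that it saw very few. The part of mesenchymal cells in the collagen changes was not tested. Summed endothelial markers were 12179–14215 CPM at high shear and 14779–16156 CPM at low shear, with KDR and VWF lower, and epithelial markers 86.8–157 CPM and 154–351 CPM, with KRT8 and KRT18 lower. The markers drawn in the plot by library were picked after their values were seen.

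**Figure D3:**
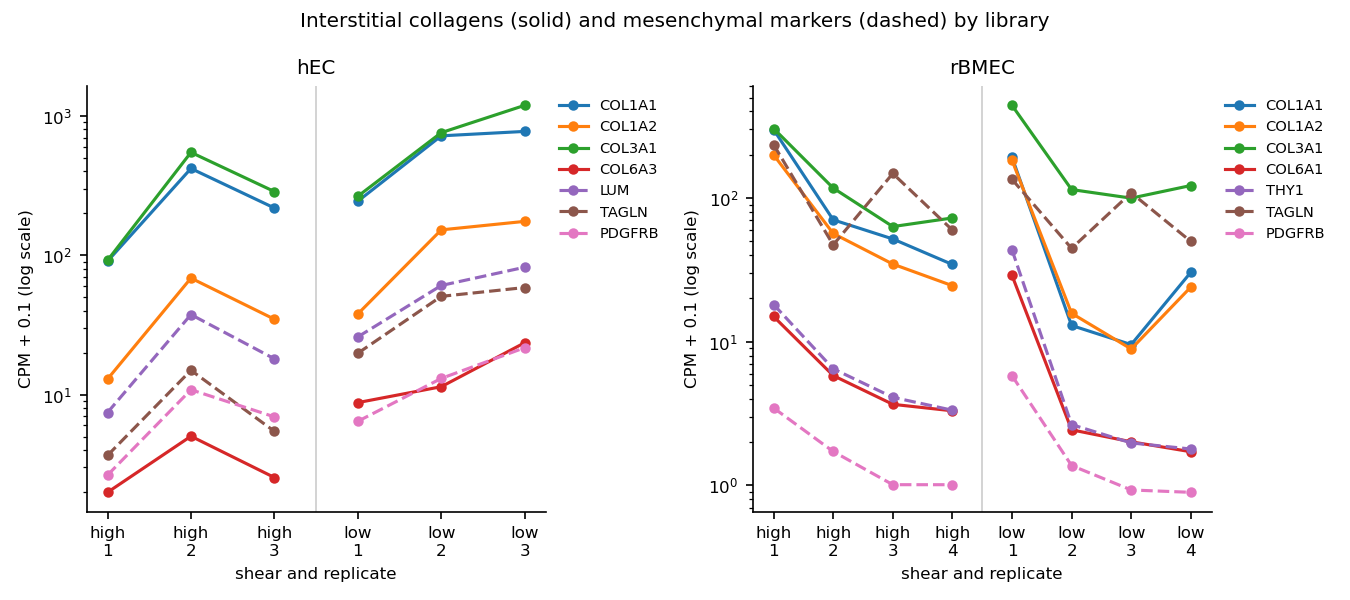
CPM + 0.1 (log axis) of collagen genes (solid; COL1A1, COL1A2, COL3A1 and COL6A3 in hECs, and Col1a1, Col1a2, Col3a1 and Col6a1 in rBMECs) and mesenchymal markers (dashed) in each library of hECs and rBMECs, high shear on the left of each panel. In hECs COL1A2 and LUM order the libraries alike at each shear level, and in rBMECs the libraries of replicate 1 are the highest for the 4 collagens drawn and for THY1, TAGLN and PDGFRB.

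The hEC counts depended on the pairing and on replicate 1. Without the replicate block 7 members were called, beside 8.36% of all genes, and without replicate 1, 2 or 3 the numbers were 9 (5.15%), 15 (16.1%) and 20 (14.7%). COL13A1, COL15A1, COL5A3 and COL11A1 were called under all 8 alternatives.

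The same comparison was made in hCECs, the endothelial cells with active Wnt signaling. Here 26 members were tested, 1 rose and 3 fell, beside 2.04% of all 14969 genes that were higher and 1.2% that were lower. The median log2 fold change was -0.09 for the members and -0.02 for all genes, with 16 negative and 10 positive values. Groups without overlap were found for 2 members that were higher and 4 that were lower, beside 13.2% and 8.72% of all genes. Collagens took 0.973, 0.909 and 1.04% of counts at high shear, against 1.15, 0.912 and 1.10% at low shear.

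COL13A1 was the member that rose in hCECs, with 72.9, 53.9 and 89.8 CPM at high shear, against 22.3, 19 and 14.8 CPM at low shear (log2 fold change 1.86, SE 0.23, adjusted p = 0.00351), without overlap. COL5A3 fell, with 0.528, 0.515 and 0.601 CPM at high shear, against 7.68, 20.6 and 3.51 CPM at low shear (log2 fold change -3.97, SE 0.65, adjusted p = 0.014). The high-shear values lie close together, while the low-shear values are spread and all lie above them. COL1A1 had 1.52, 10.1 and 5.55 CPM at high shear, against 4.57, 55.9 and 13 CPM at low shear (log2 fold change -1.87, SE 0.29, adjusted p = 0.00993), and COL3A1 had 13.8, 50.5 and 20.9 CPM at high shear, against 28.5, 106 and 39.5 CPM at low shear (log2 fold change -1.10, SE 0.13, adjusted p = 0.00272). The groups of both genes overlap, with replicate 2 the highest at both shear levels and every high-shear library below its pair. COL1A2 had 3.03, 7.39 and 5.09 CPM at high shear, against 1.81, 36 and 5.64 CPM at low shear and was not called (log2 fold change -0.66, adjusted p = 0.673).

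The most abundant members of hCECs did not pass the test. COL4A1 had 4075, 3610.3 and 4099 CPM at high shear, against 4970.0, 2607 and 4721 CPM at low shear (log2 fold change -0.09, adjusted p = 0.902), and COL4A2 had 3736, 3481 and 3883 CPM at high shear, against 4414, 2111 and 4175 CPM at low shear (log2 fold change 0.04, adjusted p = 0.96). In replicates 1 and 3 both genes were lower at high shear, and in replicate 2, whose low-shear library has the smallest values, they were higher. COL6A2 had 799, 789 and 1109.8 CPM at high shear, against 953, 438 and 995 CPM at low shear, and COL18A1 had 505, 406 and 600.5 CPM at high shear, against 636, 239 and 705 CPM at low shear. In COL18A1 replicate 2 alone was higher at high shear, and in COL6A2 replicates 2 and 3 were. COL15A1 had 87.1, 40.9 and 193 CPM at high shear, against 61.4, 25.5 and 61.1 CPM at low shear, higher at high shear in 3 of 3 pairs, and did not pass edgeR's test (log2 fold change 0.87, adjusted p = 0.105) but did pass that of DESeq2 (adjusted p = 0.00445). Without replicate 2, 13 of 27 members tested were called in hCECs, beside 14.5% of all genes, among them the 4 above, with COL15A1 (log2 fold change 1.10) and COL6A1 (1.08) higher and COL4A1 (-0.23) and COL18A1 (-0.27) lower. Without the replicate block 2 were called, beside 1.74%. Fibroblast markers summed to 58.0–99.6 CPM at high shear and 44.9–57.6 CPM at low shear, with THY1 higher, and smooth muscle markers to 335–494 CPM and 294–549 CPM, and their part in the collagen values was not tested.

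In hBMEC-like cells more collagens rose than fell. Of 34 members tested 9 were higher and 5 lower at high shear, beside 8.2% and 6.77% of all 16452 genes, and the changes were small: apart from COL6A5, which averaged under 5 CPM, no called member reached 1 on the log2 scale. The median log2 fold change of the members was 0.04, beside -0.00 for all genes, with 18 positive and 16 negative values. Without overlap between groups were 5 members that were higher and 4 that were lower, beside 9.07% and 9.7% of all genes. The collagen share was 1.24, 1.21 and 1.29% of counts at high shear, against 1.15, 1.19 and 1.17% at low shear.

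The leading fibrillar genes of hBMEC-like cells differed in whether they changed. COL1A2 had 636, 583 and 593 CPM at high shear, against 442, 433 and 408 CPM at low shear (log2 fold change 0.51, SE 0.04, adjusted p = 1.37e-09). COL1A1 had 2757, 2739 and 3077 CPM at high shear, against 2269, 2637 and 2659 CPM at low shear (log2 fold change 0.19, SE 0.04, adjusted p = 0.000866). COL5A1 had 519.6, 467 and 468 CPM at high shear, against 383, 391 and 364 CPM at low shear (log2 fold change 0.36, SE 0.04, adjusted p = 4.82e-07). All high-shear values of these 3 genes lay above all low-shear values. COL3A1, the most abundant, had 4270.2, 4351 and 4899.9 CPM at high shear, against 4275, 4309.7 and 4305 CPM at low shear and was not called (log2 fold change 0.07, adjusted p = 0.176), and neither was COL5A2, with 1007, 1005 and 857 CPM at high shear, against 1027, 1074 and 859 CPM at low shear (log2 fold change -0.04, adjusted p = 0.567).

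Among the FACITs COL12A1 had 118, 72.9 and 63.8 CPM at high shear, against 68.6, 57.5 and 50.9 CPM at low shear (log2 fold change 0.50, SE 0.07, adjusted p = 6.57e-06), and COL16A1 had 12.7, 10.9 and 8.65 CPM at high shear, against 6.81, 7.75 and 4.13 CPM at low shear (log2 fold change 0.82, SE 0.14, adjusted p = 0.000107). The COL16A1 groups did not overlap, and those of COL12A1 did. The type VI chains split: COL6A3 had 36.9, 26.9 and 44.5 CPM at high shear, against 28.6, 20.3 and 22 CPM at low shear (log2 fold change 0.61, SE 0.09, adjusted p = 3.48e-05), with overlapping groups and all 3 pairs higher, whereas COL6A1 had 56.8, 56.8 and 80.8 CPM at high shear, against 66.7, 73.3 and 95.5 CPM at low shear (log2 fold change -0.27, SE 0.05, adjusted p = 0.000485). COL6A6 had 49.7, 57.9 and 72.2 CPM at high shear, against 64.3, 66.4 and 77.3 CPM at low shear (log2 fold change -0.21, adjusted p = 0.0104). COL6A1 and COL6A6 were lower at high shear in every pair although their groups overlapped, as replicate 3 was high at both shear levels. COL17A1 had 27.5, 23.2 and 15 CPM at high shear, against 17.7, 17.7 and 12.5 CPM at low shear (log2 fold change 0.44, SE 0.09, adjusted p = 0.00125), and COL23A1 had 4.66, 6.44 and 9.26 CPM at high shear, against 9.26, 11.2 and 11.6 CPM at low shear (log2 fold change -0.68, SE 0.14, adjusted p = 0.000896). Both are transmembrane collagens, and they changed in opposite directions, each in 3 of 3 pairs.

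Of the 6 basement membrane genes tested in hBMEC-like cells 2 were higher, both by a small amount. COL4A1 had 357, 335 and 287 CPM at high shear, against 294, 295 and 284 CPM at low shear (log2 fold change 0.17, adjusted p = 0.00988), and COL4A6 had 230.2, 223 and 198 CPM at high shear, against 216, 203 and 180.4 CPM at low shear (log2 fold change 0.13, adjusted p = 0.0299). Both were higher at high shear in every pair, with overlapping groups. COL4A2 had 514, 510.3 and 487 CPM at high shear, against 494, 486 and 478 CPM at low shear and was not called (log2 fold change 0.06, adjusted p = 0.326). COL18A1 had 639, 705 and 713 CPM at high shear, against 698, 767 and 778 CPM at low shear (log2 fold change -0.12, adjusted p = 0.0235), lower at high shear in all 3 pairs. Markers moved with these changes here too: CNN1, ACTA2, RGS5 and TAGLN of the smooth muscle list were higher, with sums of 1065–1273 CPM at high shear and 905–1003 CPM at low shear, and in the fibroblast list (653–924 CPM and 494–659 CPM) DCN and LUM were higher and PDGFRA and THY1 lower. Of the 9 epithelial markers 5 were higher. Their part in the collagen changes was not tested. Without the replicate block COL1A2 alone was called, beside 0.0425% of all genes.

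**Figure D4:**
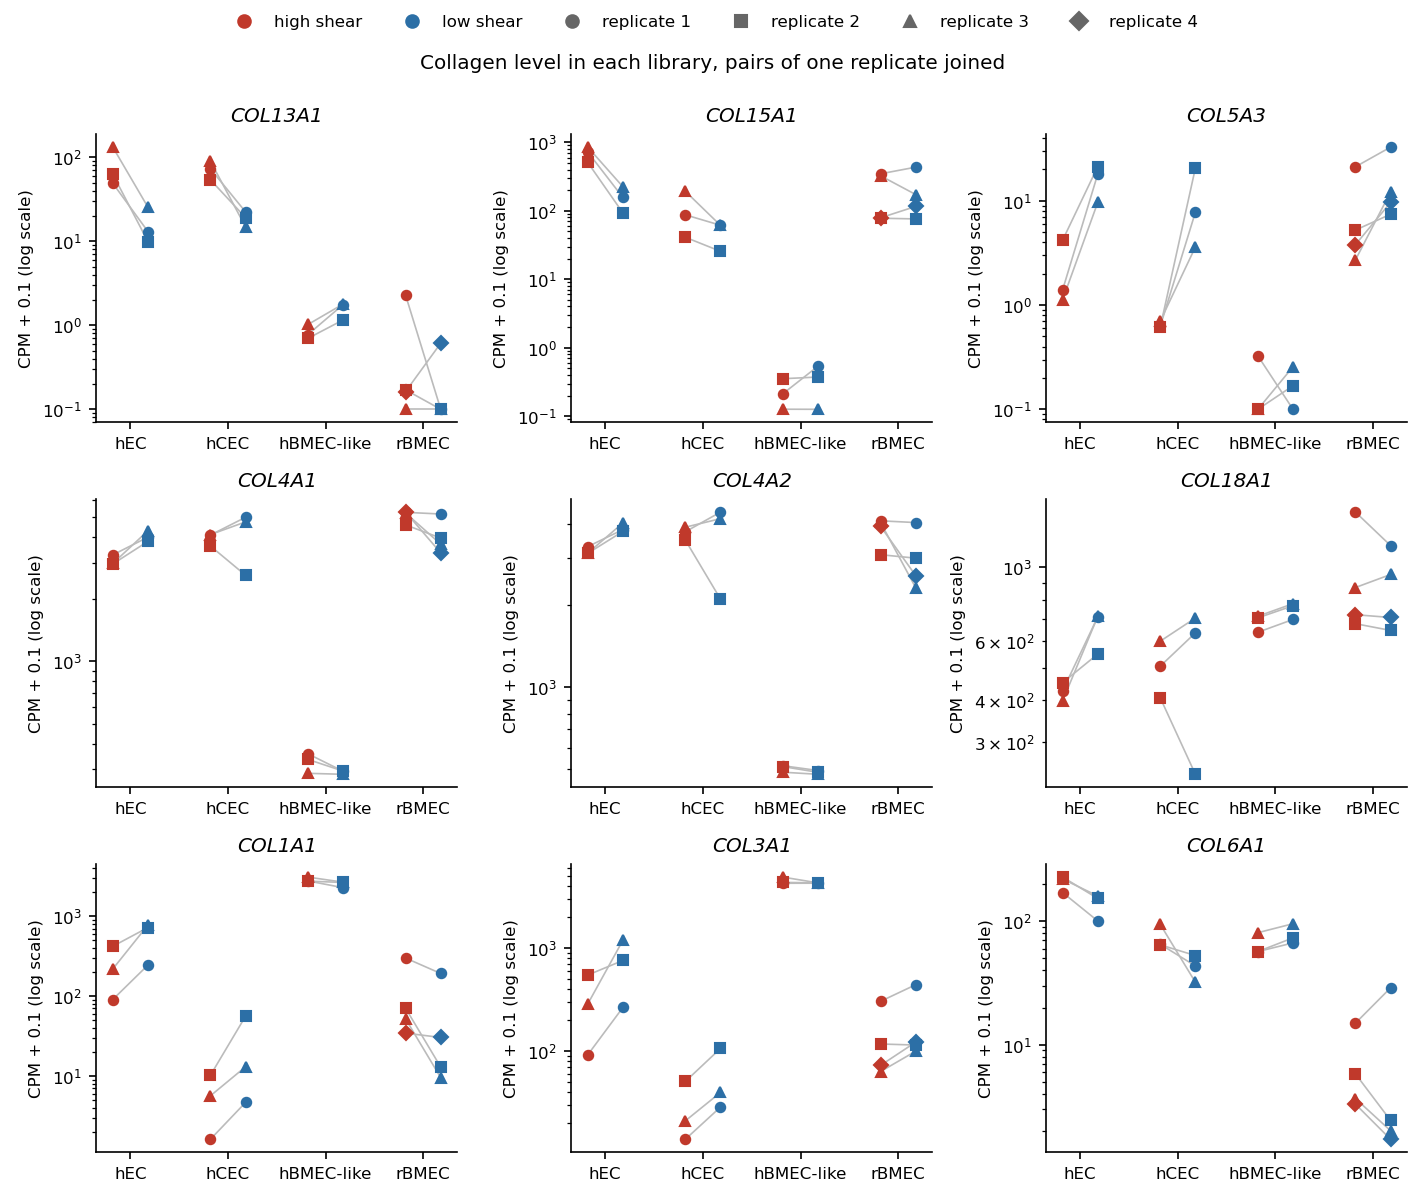
CPM + 0.1 (log axis) of 9 collagen genes in every library of the 4 models, high shear left of low shear, with the libraries of a replicate joined by a line. COL13A1 is higher at high shear in all pairs of hECs and hCECs and COL5A3 lower, and the low-shear hCEC library of replicate 2 has the lowest COL4A1, COL4A2 and COL18A1 of its model.

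In primary rBMECs no member passed the test. Of 27 members tested 0 were called by edgeR's quasi-likelihood test, beside 0.088% of all 13643 genes that were higher and 0.0366% that were lower, and 10 had an unadjusted p under 0.05, beside 9.38% of all genes. DESeq2 called 4, beside 2.41%, Col11a1 and Col7a1 higher and Col19a1 and Col5a3 lower. The median log2 fold change was 0.26 for the members and -0.01 for all genes, with 17 positive and 10 negative values. Collagens took 1.29, 0.922, 1.10 and 1.04% of counts at high shear, against 1.25, 0.822, 0.789 and 0.755% at low shear, the higher share being at high shear in 4 of 4 pairs. Groups without overlap were found for 0 members that were higher and 2 that were lower (Col19a1 and Col4a6), beside 1.96% and 2.38% of all genes.

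Col4a1 had 5252, 4566, 5213 and 5265 CPM at high shear, against 5154, 3944, 3684 and 3344 CPM at low shear (log2 fold change 0.35, 95% interval 0.01 to 0.69, adjusted p = 0.617). Col4a2 had 4099.9, 3076, 4043 and 3913 CPM at high shear, against 4039, 2987, 2326 and 2578 CPM at low shear (log2 fold change 0.37, 95% interval -0.01 to 0.74, adjusted p = 0.633). Both were higher at high shear in all 4 pairs, by little in replicates 1 and 2 and more in replicates 3 and 4. Neither had an unadjusted p under 0.05 in edgeR's test. The Col4a1 interval is nonetheless wholly positive, because it uses a normal quantile, which is too narrow for so few libraries. Col18a1 had 1465, 678, 870.1 and 721 CPM at high shear, against 1162, 647, 952 and 707 CPM at low shear, with overlapping groups, and Col15a1 had 347, 77.8, 325 and 78.8 CPM at high shear, against 434, 76, 173 and 116 CPM at low shear, where the pairs went both ways. For Col15a1 the 95% interval of the log2 fold change ran from -0.44 to 0.46. Fibroblast markers summed to 3.55–18.8 CPM at high shear and 1.69–47.2 CPM at low shear in rBMECs, and smooth muscle and mural markers to 72.0–324.5 CPM and 77.1–194 CPM.

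The fibrillar collagens of rBMECs were most abundant in replicate 1. Col1a1 had 299, 70.3, 51.7 and 34.3 CPM at high shear, against 192, 12.9, 9.43 and 30.3 CPM at low shear (log2 fold change 1.41, adjusted p = 0.385), and Col1a2 had 199, 56.5, 34.6 and 24.4 CPM at high shear, against 183, 15.6, 8.79 and 23.9 CPM at low shear (log2 fold change 0.97, adjusted p = 0.488). Col3a1 had 304, 117, 63.1 and 72.5 CPM at high shear, against 441, 114, 99.6 and 122 CPM at low shear (log2 fold change -0.48, adjusted p = 0.404). In each of these genes replicate 1 was the highest at both shear levels. The same libraries held the most Thy1, a surface marker of fibroblasts and mural cells, at 18, 6.37, 4.00 and 3.23 CPM at high shear, against 43.4, 2.55, 1.87 and 1.69 CPM at low shear. The other fibroblast markers of the list stayed at or below 2.39 CPM in every rBMEC library. Smooth muscle and mural sums were also highest in replicate 1, at 324.5 CPM at high shear and 194 CPM at low shear. Tagln, Cspg4, Pdgfrb and Cnn1 were highest there at both shear levels, and Acta2, Myh11, Des, Rgs5 and Notch3 were not. Its summed endothelial markers were 9730 CPM at high shear (17568 to 19490 CPM in the others) and 16410.5 CPM at low shear (14082 to 19406 CPM). Cldn5, the tight junction claudin of brain endothelium, stood at 356 CPM in the high-shear library of replicate 1, against 1638 to 3455 CPM in the other high-shear libraries. In the low-shear library of replicate 1 it stood at 2076 CPM, within the 1135 to 2555 CPM of the other low-shear libraries. The part of other cell types in these values was not tested. Leaving out any replicate gave 0 called members. Col7a1, the anchoring fibril gene, had 19.2, 0.986, 6.41 and 1.73 CPM at high shear, against 2.71, 0.182, 0 and 0.179 CPM at low shear (log2 fold change 3.56, adjusted p = 0.169). It was higher at high shear in 4 of 4 pairs, and outside replicate 1 its low-shear values were at or near 0. Col5a3, the chain that fell in hECs and hCECs, had 21.1, 5.14, 2.61 and 3.70 CPM at high shear, against 32.6, 7.34, 12.1 and 9.55 CPM at low shear, lower at high shear in all 4 pairs (log2 fold change -1.15, adjusted p = 0.291). In all rBMEC libraries 4 members (Col26a1, Col28a1, Col6a5 and Col9a1) were at 0, which allows up to 0.0122 CPM over the 8 libraries.

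Whether the models differ in these effects was tested as interactions of shear and model. Of the members called in hECs 17 were also tested in hBMEC-like cells, and 11 were called in both models. Of these 11, 8 were higher in hBMEC-like cells and lower in hECs (COL12A1, COL16A1, COL1A1, COL1A2, COL4A1, COL4A6, COL5A1 and COL6A3), COL6A1 was lower in hBMEC-like cells and higher in hECs, and COL18A1 and COL23A1 were lower in both. The difference itself passed the test for 6 of 37 members, beside 3.19% of all genes; 5 were higher and 1 lower, beside 1.98% and 1.21%. It did so for 4 of the 9 that were called in opposite directions: COL12A1 (3.69, SE 0.62, adjusted p = 0.0101), COL1A1 (1.55, SE 0.33, adjusted p = 0.0317), COL4A6 (1.37, SE 0.13, adjusted p = 0.000688) and COL5A1 (1.17, SE 0.20, adjusted p = 0.0111), as hBMEC-like minus hEC on the log2 scale. For the remaining 5 the adjusted p ranged from 0.0516 (COL6A3) to 0.282 (COL4A1). COL3A1 (1.45, adjusted p = 0.049) and COL13A1 (-3.28, adjusted p = 0.00166) differed too, and COL13A1 stood at 0.677, 0.600 and 0.923 CPM at high shear, against 1.67, 1.06 and 1.69 CPM at low shear in hBMEC-like cells. These counts moved with the libraries used. Without replicate 2 of every human model, all 9 opposite members were called among 15 (10.4% of all genes), and without replicate 1 none was (0.0517%). Leaving out replicate 2 removes the low-shear hEC library that stands apart as well as the low-shear hCEC one. Which library brought the change was not tested. Without the replicate block 1 was called.

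**Figure D5:**
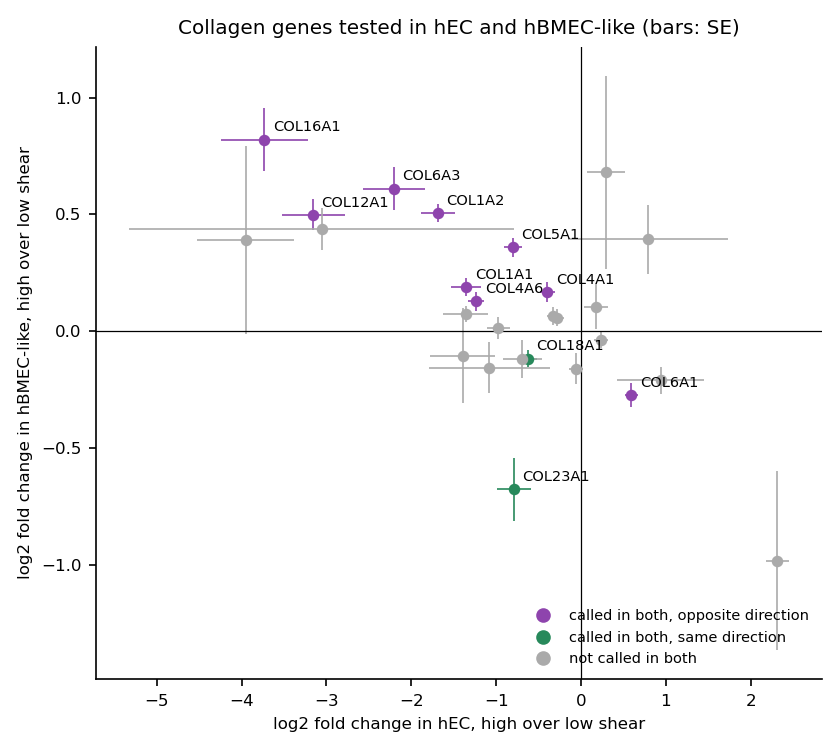
Log2 fold change, high over low shear, of the collagen genes tested in both models, hECs on the x axis and hBMEC-like cells on the y axis; bars are standard errors, and the 11 members called in both models are named. Of these, 9 lie in the quadrants of opposite sign, and the scale of the changes is smaller in hBMEC-like cells.

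Between hCECs and hECs 4 of 37 members differed in their shear effect, beside 1.88% of all genes, with 3 higher (0.882%) and 1 lower (0.994%). As hCEC minus hEC, these were COL11A1 (1.53, adjusted p = 0.0225), COL23A1 (1.37, adjusted p = 0.0345), COL4A6 (1.21, adjusted p = 0.00321) and COL6A6, whose estimate rests on the low-shear hCEC library of replicate 2. COL11A1 had 18.9, 21.7 and 11.9 CPM at high shear, against 8.08, 17.1 and 10.9 CPM at low shear in hCECs, COL23A1 had 49.7, 37 and 67.3 CPM at high shear, against 35.3, 23.3 and 44.5 CPM at low shear and COL4A6 had 28.5, 39.2 and 25 CPM at high shear, against 27.2, 39.9 and 26.6 CPM at low shear. None of the 3 was called within hCECs, and all were lower in hECs. The effect on COL13A1 (-0.38, 95% interval -0.94 to 0.19) and on COL5A3 (-0.81, -2.79 to 1.17) was not shown to differ between the models. COL15A1 was called in hECs alone, and its difference did not pass (-1.24, adjusted p = 0.0659). Between hBMEC-like cells and hCECs 7 of 37 members differed, beside 4.39% of all genes (3.15% higher and 1.24% lower), among them COL1A1 (2.01, adjusted p = 0.0119), COL12A1 (4.60, adjusted p = 0.0174) and COL13A1 (-2.91, adjusted p = 0.00296). In hCECs COL12A1 had 0.231, 0.294 and 0.283 CPM at high shear, against 0.906, 18.4 and 0.651 CPM at low shear, so that the estimate rests on the low-shear library of replicate 2. It was 2.16 without replicate 2, and the call was lost without the block and without replicate 1, 2 or 3 (adjusted p = 0.0661 to 0.168). COL1A1 was no longer called without replicate 1, replicate 3 or the block, whereas COL13A1 was called under all 8 alternatives.

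Between rBMECs and hECs 7 of 36 members differed, beside 4.01% of all genes matched by symbol, with 6 higher (1.85%) and 1 lower (2.16%). Between rBMECs and hCECs 2 of 37 differed, beside 1.55%, both higher (0.917%, and 0.632% lower). As rBMEC minus hEC, COL15A1 was lower (-2.17, SE 0.32, adjusted p = 0.0112), and COL1A1 (2.76, SE 0.59, adjusted p = 0.0376), COL1A2 (2.65, SE 0.54, adjusted p = 0.0323), COL12A1, COL16A1, COL4A6 and COL8A1 were higher. COL8A1 had 119.8, 82.4, 57 and 97.2 CPM at high shear, against 148, 110.5, 127 and 76 CPM at low shear in rBMECs, and under 1 CPM in all hEC libraries but the low-shear ones of replicates 2 and 3. The differences from hECs share the hEC libraries. For COL4A6 and COL8A1 the estimate was negative in rBMECs too (-0.43 and -0.38, not called), but less so than in hECs (-1.23 and -3.95). The COL4A6 difference was still called under 2 of 9 alternatives. Without replicate 2 none of the rBMEC minus hEC differences passed.

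Levels at low shear were compared between the human models over 37 members. Against hECs, 5 members were lower in hCECs and 0 higher, beside 2.49% and 1.24% of all genes (3.73% in either direction): COL1A1 (log2 fold change -4.52, SE 0.92, adjusted p = 0.0344), COL3A1 (log2 fold change -3.62, adjusted p = 0.0248), COL11A1 (log2 fold change -2.16, adjusted p = 0.00501), COL5A1 (log2 fold change -2.03, adjusted p = 0.00785) and COL6A1 (log2 fold change -1.66, adjusted p = 0.0121). COL1A1 stood at 4.57, 55.9 and 13 CPM in low-shear hCECs and 244, 719.6 and 774 CPM in low-shear hECs. Without the low-shear hCEC library of replicate 2, 14 of 37 members were called, beside 18.2% of all genes. Over single libraries left out and the other alternatives, the COL1A1 value ranged between -6.04 and -4.05, and its call was lost without any one of 5 libraries, the 3 low-shear hECs and replicates 1 and 3 of the low-shear hCECs (adjusted p = 0.0583 to 0.112), while DESeq2 gave it no adjusted p. COL3A1 lost its call without any one of 4 of these libraries (adjusted p = 0.0751 to 0.0875) and COL6A1 without the low-shear hEC library of replicate 2 (0.0516). COL11A1 and COL5A1 were called under all 11 alternatives. The median over all genes was itself shifted by 0.11 on the log2 scale in hCECs against hECs, and by -0.23 in hBMEC-like cells against hCECs. COL4A1 and COL4A2 were not shown to differ between hCECs and hECs, with log2 fold changes of 0.04 (95% interval -0.48 to 0.56) and -0.10 (-0.65 to 0.45).

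Between hBMEC-like cells and hECs 47.8% of all genes differed, 22.1% higher and 25.7% lower in hBMEC-like cells, and 8 and 11 of 37 members did so. COL4A1 (log2 fold change -3.98, SE 0.30, adjusted p = 1.17e-05), COL4A2 (log2 fold change -3.18, adjusted p = 4.7e-05), COL6A2 (log2 fold change -5.20, adjusted p = 5.39e-06) and COL15A1 (log2 fold change -9.54, adjusted p = 1.12e-05) were lower in hBMEC-like cells. COL3A1 (log2 fold change 2.35, adjusted p = 0.0152), COL4A5 (log2 fold change 1.27, adjusted p = 0.000477) and COL4A6 (log2 fold change 2.21, adjusted p = 0.00174) were higher, as were COL2A1, COL26A1 and COL9A3. COL2A1 had 227, 244 and 401 CPM in low-shear hBMEC-like cells and 0.157, 0.199 and 0.0265 CPM in low-shear hECs, and COL26A1 had 240.4, 214 and 255 CPM and 0, 0.0397 and 0.106 CPM. COL15A1 stood at 0.438, 0.273 and 0.0260 CPM in low-shear hBMEC-like cells, COL6A2 at 31.9, 30.9 and 43.3 CPM and COL4A5 at 334, 322 and 303 CPM. The type IV chains divided, with COL4A1 and COL4A2 lower and COL4A5 and COL4A6 higher in hBMEC-like cells. Against hCECs, 11 members were higher and 10 lower in hBMEC-like cells, beside 19.5% and 27.3% of all genes (46.9% in either direction).

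Collagen chains are hydroxylated, glycosylated and folded in the endoplasmic reticulum, exported in large carriers, trimmed outside the cell and cross-linked, and a list of 44 genes for these steps and for the receptors of collagen was examined beside the members. In hECs 12 of its 40 tested genes were lower and 3 higher at high shear, with a median log2 fold change of -0.25, beside the 8.23% and 7.87% of all genes given above. In the group for folding and modification 8 of 18 were lower. PLOD1, a lysyl hydroxylase, averaged 257 ± 28.6 CPM at high shear and 455 ± 58.1 CPM at low shear (SD, n = 3 each; log2 fold change -0.83, adjusted p = 0.000459), and LOXL1, a cross-linking lysyl oxidase, 2.61 ± 1.30 CPM at high shear and 11 ± 4.43 CPM at low shear (log2 fold change -2.12, adjusted p = 0.000385). FKBP10, a chaperone of procollagen, averaged 138 ± 10.4 CPM at high shear and 236 ± 11.8 CPM at low shear (log2 fold change -0.78, adjusted p = 0.000777). For these 3 genes the groups did not overlap. PLOD2 (log2 fold change -1.21), LOX (-1.70) and P3H4 (-0.74), which act in hydroxylation and cross-linking, were lower too.

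In hCECs 3 of the 40 tested genes of the list were higher and 2 lower, beside 2.04% and 1.2% of all genes, among them the collagen receptor chains ITGA1, with 507 ± 54.3 CPM at high shear and 245 ± 53 CPM at low shear (log2 fold change 0.98, adjusted p = 0.02), and ITGA2, with 30.02 ± 5.65 CPM at high shear and 63.4 ± 20.5 CPM at low shear (log2 fold change -1.13, adjusted p = 0.00154), which changed in opposite directions. TLL1, a protease that trims procollagen (log2 fold change 1.48), and P3H2, a prolyl hydroxylase (1.37), were higher. In hBMEC-like cells 13 of 40 were higher and 2 lower, beside 8.2% and 6.77% of all genes, with a median log2 fold change of 0.07, and 4 of the 7 receptor genes were higher. LOXL2 averaged 98.2 ± 11 CPM at high shear and 72.9 ± 6.22 CPM at low shear (log2 fold change 0.43, adjusted p = 3.8e-07), and ITGA1 20.3 ± 2.22 CPM at high shear and 12.1 ± 2.24 CPM at low shear (log2 fold change 0.75, adjusted p = 2.36e-06) in these cells. SEC24D, a coat protein of export vesicles (log2 fold change 0.32), ITGB1, the beta chain of collagen receptors (0.22), and P3H1, a prolyl hydroxylase (0.28), were higher there, and PCOLCE, an enhancer of procollagen trimming (-0.22), was lower. In rBMECs 0 of 37 tested genes were called by edgeR, 5 had an unadjusted p under 0.05, and DESeq2 called 1, Tll1. DDR1 and the member COL11A2 are split over 7 lines each in the human tables, so that their counts are uncertain. Antisense genes overlap COL1A2, COL5A1, COL4A2 and COL18A1, and the spans of COL4A1 and COL4A2 overlap on opposite strands. The strand setting of the counting was not given in the sources used here.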

How the data were processed

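Polyadenylated RNA of 26 cultures was sequenced. As the authors describe, reads were aligned with STAR and counted with featureCounts; the labels name hg38 for all libraries and the methods rn7 for rat cells. The authors deposited read counts for each gene, whole numbers that were not normalized, from which 6 lines per human table and 5 in the rat table that name no gene were left out. Library totals were 9790999 to 47006272 counts. Groups and replicate numbers come from the sample titles. Human replicates share 1 cell line and the labels do not tie rat replicates to animals, so p-values measure the spread between these cultures.

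High and low shear were compared per model by edgeR 4.0.16 in R 4.3.3: the quasi-likelihood F test, TMM normalization, filterByExpr (minimum count 10, total 15) and the replicate number as a block, as in the paired DESeq2 design of the study. P-values were adjusted by the Benjamini–Hochberg method over all genes kept, with calls made below 0.05. The SE is the absolute log2 fold change over the square root of F, and the 95% interval is 1.96 SE to each side. This is a normal approximation. With so few libraries all these intervals are narrower than the F test implies, so that one can exclude no change where the test does not. CPM are TMM-scaled within a model, and CPM per kilobase use the deposited exon length. Differences of effects are interactions in joint fits (the 18 human libraries, or rBMECs with 1 human model) with replicates of each model as blocks; levels at low shear were fitted over the 9 human low-shear libraries. Deviations of same-numbered high-shear and low-shear libraries from their group means had correlations of 0.259–0.501 in hECs, 0.0838–0.193 in hCECs, 0.263–0.526 in hBMEC-like cells and 0.0816–0.48 in rBMECs, where the high-shear libraries of replicates 1 and 4 correlated more with a low-shear library of another number (0.459 and 0.448); the pairing comes from the study's paired design, not from these values. Alternatives were RLE size factors, library totals, no filter, no block, DESeq2 1.42.0 and each replicate left out. The fits were also run on simulated counts, which had a fixed dispersion, no replicate effect and no outlying library. Such counts cannot show how the calls depend on the pairing or on single libraries.

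Values in every library were given for members called in a model with a mean of at least 5 CPM and for the 4 most abundant members per model at low shear, each with its partner chains; further members named were chosen after their values were seen. Of the pathway list, called genes with a mean of at least 5 CPM were named, up to 6 per model by smallest p. Members, classes and lists were chosen with earlier results of these data known. Coordinates are from GENCODE release 44 (GRCh38) and sequences from RefSeq.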

Additional observations from a re-analysis of the deposited data

Results flagged for a closer look

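In rBMECs 12 of the 40 groups of 4 libraries examined (20 members with a mean of at least 5 CPM, at 2 shear levels) held a library far from the others. The rate of about 5% by chance holds for independent groups. These groups share the same libraries, so the count cannot be set against that rate. In 11 of these the library was replicate 1, each time the highest. At high shear Col11a1 stood at 23.6 CPM in it (1.85–4.82 CPM in the other libraries), Col1a1 at 299 CPM (34.3–70.3 CPM), Col5a1 at 52.1 CPM (5.21–13.2 CPM) and Col5a3 at 21.1 CPM (2.61–5.14 CPM). At low shear Col11a1 stood at 22.8 CPM (0.288–1.24 CPM), Col1a1 at 192 CPM (9.43–30.3 CPM), Col1a2 at 183 CPM (8.79–23.9 CPM), Col3a1 at 441 CPM (99.6–122 CPM), Col5a1 at 40.6 CPM (7.25–7.60 CPM), Col6a1 at 28.8 CPM (1.61–2.33 CPM) and Col6a2 at 28.9 CPM (1.33–2.06 CPM). The remaining library was the lowest of Col4a1 at high shear, replicate 2, with 4566 CPM beside 5213 to 5265 CPM.

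Differences of the shear effect between models that passed edgeR's test numbered 26. As hCEC minus hEC on the log2 scale, they were 1.53 for COL11A1 (adjusted p = 0.0225), 1.37 for COL23A1 (0.0345), 1.21 for COL4A6 (0.00321) and -10.59 for COL6A6 (0.00615). As hBMEC-like minus hEC, they were 3.69 for COL12A1 (0.0101), -3.28 for COL13A1 (0.00166), 1.55 for COL1A1 (0.0317), 1.45 for COL3A1 (0.049), 1.37 for COL4A6 (0.000688) and 1.17 for COL5A1 (0.0111). As hBMEC-like minus hCEC, they were 4.6 for COL12A1 (0.0174), -2.91 for COL13A1 (0.00296), 4.21 for COL14A1 (0.0453), 2.01 for COL1A1 (0.0119), -1.25 for COL23A1 (0.0315), 9.42 for COL26A1 (0.00121) and 9.47 for COL6A6 (0.00401). As rBMEC minus hEC, they were 3.35 for COL12A1 (0.0111), -2.17 for COL15A1 (0.0112), 3.66 for COL16A1 (0.0278), 2.76 for COL1A1 (0.0376), 2.65 for COL1A2 (0.0323), 0.81 for COL4A6 (0.0495) and 3.92 for COL8A1 (0.0149). As rBMEC minus hCEC, they were 3.27 for COL1A1 (0.0368) and 9.52 for COL20A1 (0.032).

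COL6A6, COL26A1 and COL20A1 were at or near 0 in all hCEC libraries but the low-shear one of replicate 2, where they had 9.56, 8.73 and 20.5 CPM. Their fitted differences depend on the prior count and give no size. The same library held 11.1 CPM of COL14A1 and 18.4 CPM of COL12A1, against under 1 CPM of either in every other hCEC library, and without replicate 2 the hBMEC-like minus hCEC differences were 2.33 (adjusted p = 0.183) and 2.16 (0.0815).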

How the results depend on the processing

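The counts of called members per model depended on the pairing. The share of all genes called under the same setting is given in brackets, and it moved as well. Without the replicate block the calls were 7 in hECs (8.36%), 2 in hCECs (1.74%) and 1 in hBMEC-like cells (0.0425%). The called differences were then 0 for hCEC minus hEC (0.492%), 1 for hBMEC-like minus hEC (1.38%), 1 for hBMEC-like minus hCEC (0.727%), 0 for rBMEC minus hEC (1.62%) and 0 for rBMEC minus hCEC (0.354%). With the block added, levels gave 20 calls for hBMEC-like over hEC (46%) and 23 for hBMEC-like over hCEC (43.5%). DESeq2 called 8 members in hCECs (6.66%) and 4 in rBMECs (2.41%). It called 7 differences for hCEC minus hEC (5.66%), 12 for hBMEC-like minus hEC (8.92%), 17 for rBMEC minus hEC (8.77%) and 5 for rBMEC minus hCEC (3.83%). For hCEC over hEC it called 8 levels (13.3%), where 23 members had an adjusted p. Without the filter on low counts 1 member was called in rBMECs (0.503%), and 10 (1.69%) and 13 (2.41%) differences for hBMEC-like minus hEC and minus hCEC. Library totals in place of TMM gave 2 differences for hCEC minus hEC (2.86%) and 1 for rBMEC minus hCEC (1.25%), where RLE size factors also gave 1 (1.39%). Leaving out a replicate gave 9 to 20 calls in hECs (5.15 to 16.1%), 6 to 13 in hCECs (2.19 to 14.5%), 11 to 14 in hBMEC-like cells (8.48 to 12.4%) and 0 in rBMECs (0 to 1.39%). The differences then ranged from 1 to 8 (hCEC minus hEC, 0.093 to 4.64%), 0 to 15 (hBMEC-like minus hEC, 0.0517 to 10.4%), 4 to 7 (hBMEC-like minus hCEC, 0.874 to 5.43%), 0 to 7 (rBMEC minus hEC, 0.524 to 2.87%) and 0 to 1 (rBMEC minus hCEC, 0.147 to 1.46%). The levels ranged from 2 to 14 (hCEC over hEC, 1.08 to 18.2%), 16 to 18 (hBMEC-like over hEC, 33.6 to 36.3%) and 17 to 31 (hBMEC-like over hCEC, 33.5 to 67.5%). The only direction that turned was the hBMEC-like minus hCEC difference of COL26A1, -0.099 without replicate 2 and up to 10.13 without replicate 1, replicate 2 being the pair with the low-shear hCEC library that carries its counts. The cause of the other changes was not tested. The shallowest library, with 9790999 counts, limits what low members of hCECs can show.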
